A study of Homo sapiens with 18 samples.

Results

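The mitochondrially encoded subunits of complex I are MT-ND1, MT-ND2, MT-ND3, MT-ND4, MT-ND4L, MT-ND5 and MT-ND6. They were taken from the deposited table by gene symbol, and all 7 were found among its 17017 genes. The data come from MDA-MB-231, a long-established human line from a triple-negative breast carcinoma, which was transduced with lentivirus for a hairpin that targets fibrillarin (FBL) or for a scramble hairpin. Fibrillarin is the methyltransferase that places 2′-O-methyl groups on cytosolic ribosomal RNA. The libraries are labelled SC, read here as the scramble control, SH2 and SH3. The protocols call the fibrillarin hairpins KD1 and KD2, and which of SH2 and SH3 is which is not given in the sources used here. In all groups the cells were kept in puromycin at 1 µg/ml for 96 h, moved to fresh medium, and given cycloheximide at 100 µg/ml for 5 min on the next day. From each lysate, part was kept as cytoplasmic RNA (IN) and the rest was digested with RNase I to recover the fragments protected by single ribosomes (RPF, footprints). Each of the 3 treatments has 3 replicates of each kind, which gives 18 libraries. The labels do not say that the replicates were separate cultures, so the p-values measure the spread between these samples only.

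Complex I, the NADH dehydrogenase of the respiratory chain, passes electrons from NADH to quinone and pumps protons across the inner mitochondrial membrane. Its membrane arm is built around the 7 proteins encoded in mitochondrial DNA, and all its other subunits come from nuclear genes. ND2, ND4 and ND5 are the antiporter-like proton-pumping subunits, ND1 helps form the chamber where quinone binds, and ND3, ND4L and ND6 are small subunits that sit next to ND1. The mRNAs are transcribed inside mitochondria as long precursors, 6 of them from the same strand and MT-ND6 from the other. MT-ND4L and MT-ND4 lie on a shared mRNA with overlapping reading frames. These mRNAs are read by mitochondrial ribosomes, whose RNA is modified by enzymes other than fibrillarin and which cycloheximide does not stop. Nuclear DNA holds partial copies of these genes. How reads that match such copies, the overlap of MT-ND4L with MT-ND4 or the strand opposite MT-ND6 were counted is not given in the sources used here, so counts of these genes are uncertain to that extent.

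The libraries held 23469830 to 27629488 counts for RNA and 1662705 to 6098648 for footprints. FBL itself was at 388 ± 36.4 CPM (counts per 1000000 counts of the library, scaled by TMM; SD, n = 3) in SC RNA, at 5.67 ± 5.09 in SH2 and at 3.49 ± 0.612 in SH3, so the target was low in every library labelled with a fibrillarin hairpin. Of the markers of this line, VIM, CD44, EGFR, ANXA1 and AXL were detected in every library, and ESR1, PGR and CDH1 did not exceed 0.449 CPM in any of the 18. The member counts ran from 219253 to 1053627 per RNA library and from 741 to 11486 per footprint library. The widest 95% Wilson interval of a share, for counting error only, had a mean half-width of 56.3% of the value, for MT-ND4L at 13 footprint counts, and 3.51% among RNA values. Values here are relative to each library, so less RNA per cell and fewer cells that hold it cannot be told apart. How fully the lysate kept as cytoplasmic RNA recovers mitochondrial RNA was not tested. A difference in that recovery cannot be told apart from a difference in RNA level.

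In RNA, SC replicate 1 stood apart from the other SC libraries. The 7 genes together took 3.97, 2.21 and 2.12% of the counts in SC RNA replicates 1 to 3, against 1.14, 0.988 and 0.794% in SH2 and 1.60, 1.07 and 1.28% in SH3. The lowest SC library was therefore above the highest library of either hairpin. In the footprints the same sum was 0.188, 0.133 and 0.0553% in SC, 0.0274, 0.0397 and 0.0422% in SH2 and 0.100, 0.0845 and 0.0645% in SH3. SH2 lay below both other groups, while SC spanned a wide range, with replicate 1 highest and replicate 3 below every SH3 library. RNA and footprint results against SC are therefore also given without the SC replicate that moved them most. For the gene lists below only SC replicate 1 was left out, also in footprints, where replicate 3 was the lowest. Of all counts of the 13 mitochondrially encoded mRNAs, the 7 genes made up 35.2 ± 1.89% (SD, n = 3) in SC RNA and 31.3 ± 2.45% in SC footprints.

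**Figure D1:**
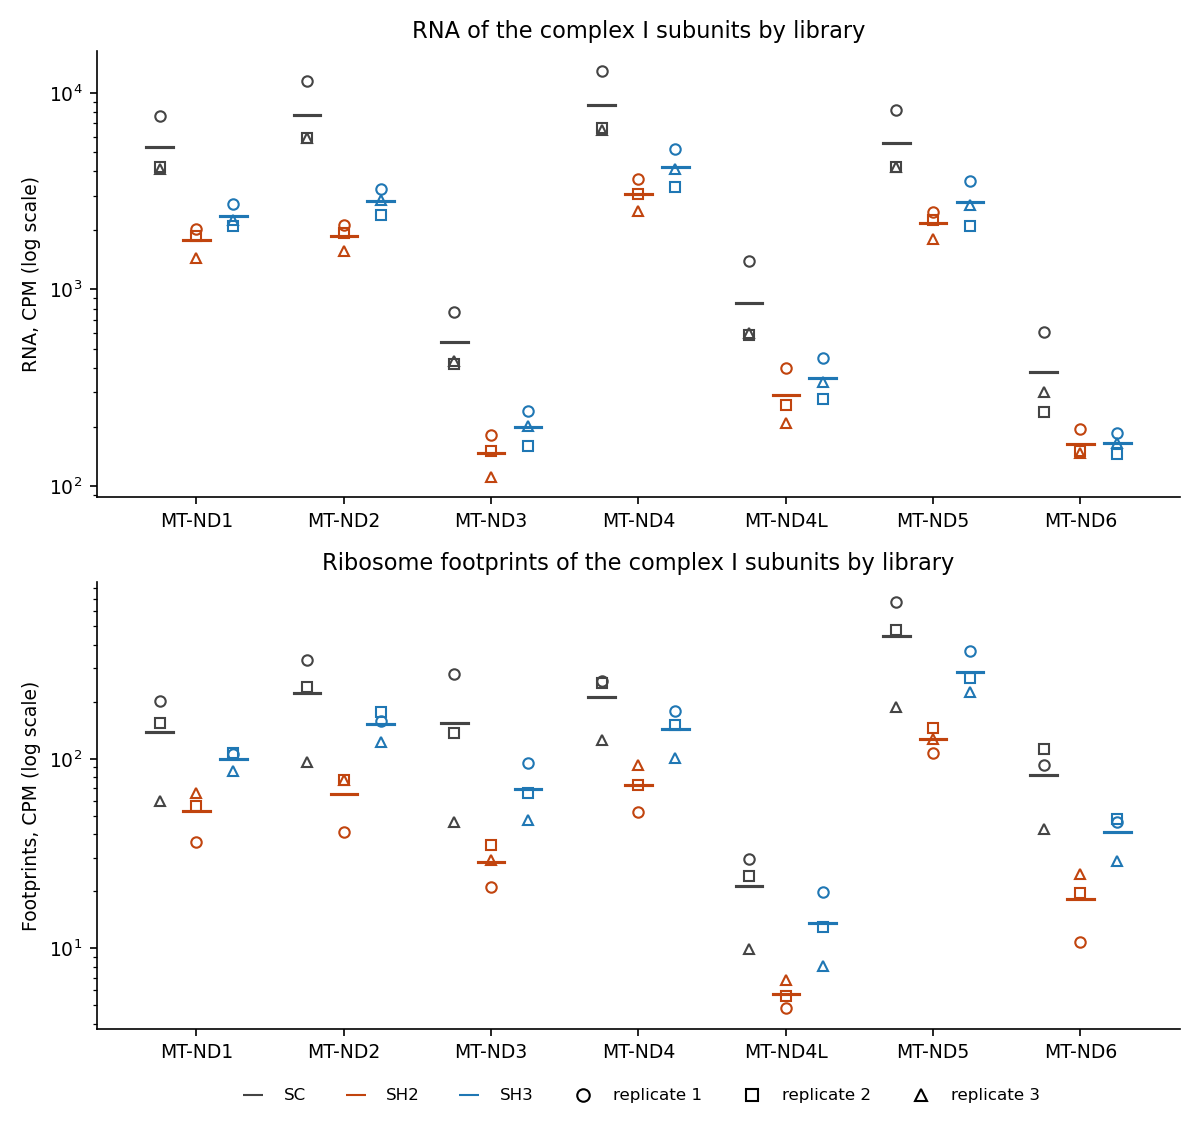
CPM of each complex I subunit on a log axis in the 9 RNA libraries (top) and the 9 footprint libraries (bottom), scaled by TMM within each kind. Points are libraries, with symbols for replicates and colours for treatments, and bars are group means of 3. In RNA both hairpins lie below SC for all 7 genes. In footprints SH2 lies below SH3 for all 7, while SH3 overlaps SC.

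RNA of all 7 subunits was lower in SH2 than in SC. In edgeR's quasi-likelihood test, with Benjamini-Hochberg adjustment over 12710 genes, 7 of 7 passed an adjusted p under 0.05, all in the lower direction, with a median log2 change of -1.57 (range -2.05 to -1.21). In the same comparison 30.4% of all genes were called lower and 31.1% higher, and the median over all genes was 0.01. Among the proton-pumping subunits, MT-ND2 was at 11479, 5927 and 5904 CPM in SC replicates 1 to 3 and at 2131, 1941 and 1572 in SH2. Every SH2 library lay under the lowest SC library by a wide margin. Its log2 change was -2.05 (SE 0.23, adjusted p = 3.96e-06), which left 24.2% of the SC level and was the largest fall of the 7. MT-ND4 went from 12935, 6656 and 6498 CPM in SC to 3654, 3051 and 2507 in SH2, a log2 change of -1.50 (SE 0.24, adjusted p = 0.000110). MT-ND5 went from 8231, 4220.0 and 4193 CPM to 2475, 2257 and 1806, a log2 change of -1.35 (SE 0.24, adjusted p = 0.000290). For both genes SC replicate 1 was the highest library by far and the other SC replicates were close together, and the groups did not overlap.

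Among the subunits around the quinone chamber, MT-ND1 was at 7599, 4215 and 4124 CPM in SC RNA and at 2021, 1878 and 1443 in SH2, with a log2 change of -1.58 (SE 0.21, adjusted p = 2.00e-05). MT-ND3 was at 768, 417 and 432 CPM in SC and at 181, 150.4 and 111 in SH2, with a log2 change of -1.87 (SE 0.23, adjusted p = 1.12e-05). MT-ND4L, the small subunit that shares its mRNA with MT-ND4, was at 1389, 585 and 600.5 CPM in SC and at 398, 258 and 210.1 in SH2. Its log2 change was -1.57 (SE 0.31, adjusted p = 0.000553) and thus close to that of MT-ND4. MT-ND6, the only member transcribed from the other strand, was at 605, 239 and 300.1 CPM in SC and at 194, 151 and 148 in SH2. It had the smallest fall of the 7, -1.21 (SE 0.25, adjusted p = 0.000892), and its lowest SC library was nearest to the SH2 range. The CPM of all 7 genes did not overlap between SH2 and SC, and 31.9% of all genes tested lay wholly below SC in this way. Without SC replicate 1, 7 of 7 were still called and the median log2 change was -1.12.

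RNA of all 7 subunits was also lower in SH3 than in SC. The comparison shares its SC libraries with the one above. Again 7 of 7 were called lower, where 25.2% of all genes were called lower and 27.8% higher. The median log2 change of the 7 was -1.20 (range -1.46 to -0.99), against 0.03 over all genes. MT-ND2 was at 3255, 2384 and 2861 CPM in SH3, a log2 change of -1.46 (SE 0.22, adjusted p = 0.000106), and was again the subunit with the largest fall. MT-ND4 was at 5187, 3334 and 4089 CPM, a log2 change of -1.05 (SE 0.24, adjusted p = 0.00218). MT-ND5 was at 3575, 2111 and 2686 CPM and had the smallest fall, -0.99 (SE 0.24, adjusted p = 0.00344). In all 3 proton-pumping subunits the highest SH3 library was replicate 1, and it stayed below the lowest SC library.

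MT-ND1 was at 2717, 2097 and 2260.2 CPM in SH3 RNA, a log2 change of -1.17 (SE 0.21, adjusted p = 0.000334). MT-ND3 was at 239, 159.9 and 203 CPM, a log2 change of -1.43 (SE 0.23, adjusted p = 0.000161). MT-ND4L was at 447, 276 and 337 CPM, a log2 change of -1.28 (SE 0.31, adjusted p = 0.00303). Of these subunits MT-ND3 kept the least, 37.2% of its SC level, and MT-ND1 the most, 44.4%. MT-ND6 was at 186, 145 and 166 CPM in SH3, a log2 change of -1.20 (SE 0.25, adjusted p = 0.00126) and close to its value in SH2. No member overlapped between SH3 and SC, and 29.6% of all genes lay wholly below SC. Without SC replicate 1 the median log2 change of the 7 was -0.76, from -1.10 for MT-ND3 to -0.61 for MT-ND5, and 7 of 7 were still called.

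Between the hairpins, RNA was lower in SH2 than in SH3 for 1 subunit of 7. MT-ND2 differed by -0.59 (SE 0.22, adjusted p = 0.0449) on the log2 scale, where 20.4% of all genes were called lower in SH2 and 18.9% higher. The other subunits differed by -0.45 to -0.01 with adjusted p of 0.131 or more. An unadjusted p under 0.05 was found for 1 of 7 subunits and for 6116 of all 12710 genes. The SH2 libraries of MT-ND1 and MT-ND2 lay wholly below those of SH3, as did 25.6% of all genes, and the other 5 subunits overlapped. The call for MT-ND2 was lost in DESeq2's Wald test and without SH2 replicate 2, SH2 replicate 3, SH3 replicate 1 or SH3 replicate 3. MT-ND6 differed by -0.01 (SE 0.25, adjusted p = 0.977), and its sign turned under DESeq2's size factors.

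**Figure D2:**
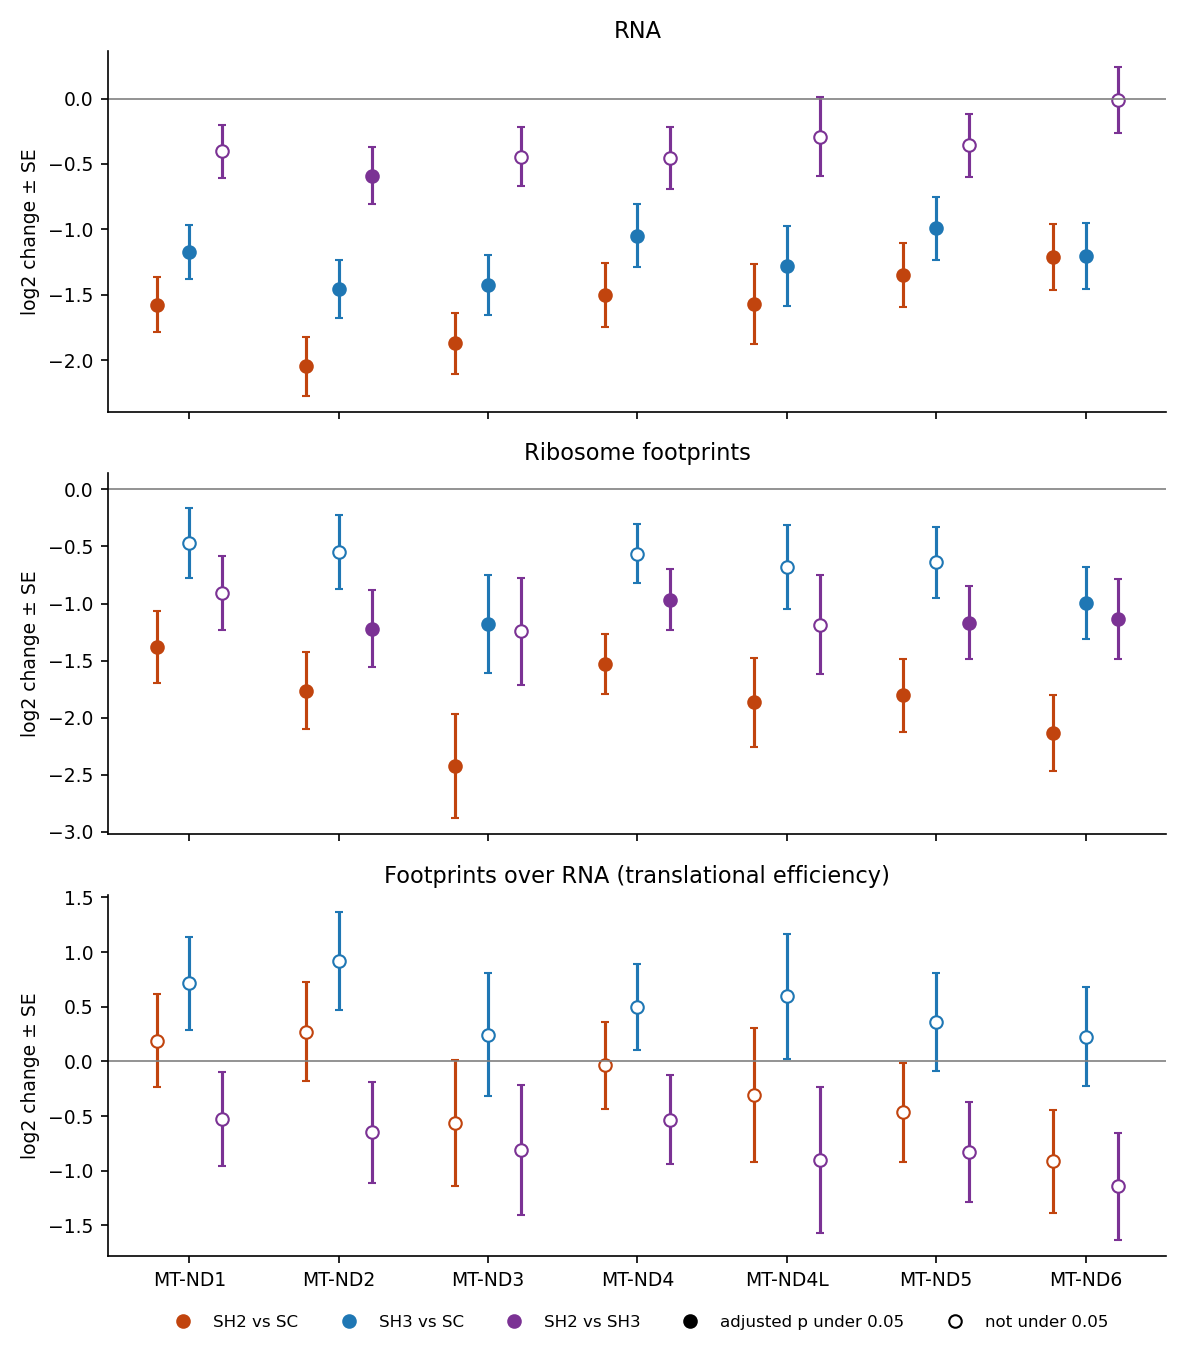
Log2 change (points) with SE (bars) of each subunit from edgeR, for RNA (top), footprints (middle) and footprints over RNA (bottom), in SH2 against SC, SH3 against SC and SH2 against SH3. Filled points have an adjusted p under 0.05. All RNA changes against SC are filled, 2 footprint changes of SH3 against SC are filled, and no ratio change is.

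Footprints on all 7 mRNAs were lower in SH2 than in SC. The test covered 10345 genes. All 7 were called lower, where 23.2% of all genes were called lower and 21.0% higher, and their median log2 change was -1.80 (range -2.42 to -1.38), against 0.00 over all genes. MT-ND2 had 334, 241 and 95.7 CPM of footprints in SC and 41.1, 77.4 and 77.1 in SH2, a log2 change of -1.76 (SE 0.34, adjusted p = 0.000596). MT-ND4 had 259, 250.2 and 126 CPM in SC and 52.6, 72.96 and 93.2 in SH2, a log2 change of -1.53 (SE 0.27, adjusted p = 0.000285). MT-ND5 had 669, 479 and 187 CPM in SC and 108, 146 and 127 in SH2, a log2 change of -1.80 (SE 0.32, adjusted p = 0.000338). In these 3 pumping subunits SC replicate 3 was the lowest control library and still stood above every SH2 library.

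With all libraries MT-ND3 footprints had the largest fall, from 279.7, 136 and 46.3 CPM in SC to 21.1, 35.2 and 29.1 in SH2, a log2 change of -2.42 (SE 0.45, adjusted p = 0.000505) that left 18.7% of the SC level. SC replicate 1 alone held more MT-ND3 footprints than the other SC replicates together, and without it the change was -1.61, smaller than that of MT-ND6, -2.003. MT-ND6 footprints were at 92.5, 112 and 42.4 CPM in SC and at 10.7, 19.6 and 24.6 in SH2, a log2 change of -2.13 (SE 0.33, adjusted p = 0.000105). MT-ND4L, the subunit with the fewest footprint counts, had 29.7, 24.01 and 9.94 CPM in SC and 4.81, 5.59 and 6.80 in SH2, from 13 to 183 counts per library over all groups, and a log2 change of -1.87 (SE 0.39, adjusted p = 0.00124). MT-ND1 had 202, 154 and 60.2 CPM in SC and 36.3, 56.4 and 65.7 in SH2, a log2 change of -1.38 (SE 0.32, adjusted p = 0.00238). It was the only member whose groups overlapped, with SC replicate 3 below SH2 replicate 3. The other 6 did not overlap, as was the case for 26.3% of all genes in the lower direction. Without SC replicate 1 all 7 were called with a median of -1.37, and without SC replicate 3 all 7 were called with a median of -2.17.

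Footprints in SH3 were called lower than in SC for 2 subunits, MT-ND3 and MT-ND6. In this comparison 19.0% of all genes were called lower and 16.9% higher. MT-ND3 had 94.8, 66.1 and 47.3 CPM in SH3, a log2 change of -1.18 (SE 0.43, adjusted p = 0.0420). MT-ND6 had 46.2, 47.9 and 28.7 CPM, a log2 change of -0.997 (SE 0.31, adjusted p = 0.0213). For both genes the SH3 range reached above the lowest SC library, and no member of the 7 was free of overlap between SH3 and SC, while 23.9% of all genes lay wholly below. The other 5 had log2 changes from -0.68 for MT-ND4L to -0.47 for MT-ND1 with adjusted p from 0.101 to 0.253. An unadjusted p under 0.05 was found for 3 of 7 subunits and for 4723 of all 10345 genes, a similar share. MT-ND5 had 369, 266 and 225 CPM in SH3 and a log2 change of -0.64 (SE 0.31, adjusted p = 0.121). MT-ND4 had 179, 150.3 and 101 CPM and -0.56 (SE 0.26, adjusted p = 0.101). MT-ND2 had 159, 178 and 122 CPM and -0.55 (SE 0.32, adjusted p = 0.205), so the pumping subunits lay close to each other. MT-ND1 had 107, 107 and 86.2 CPM in SH3 and MT-ND4L had 19.9, 13.01 and 8.06.

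The SH3 footprint result moved with single SC libraries. Without SC replicate 1 the median log2 change of the 7 was -0.26, with MT-ND1 at -0.05, and 1 subunit, MT-ND6, was called. Without SC replicate 3 the median was -0.998 and 7 of 7 were called. Without SH3 replicate 3, or in DESeq2's Wald test, 0 were called. All 7 changes were below 0 under each of the 17 alternatives. SC replicate 1 had the highest total of the 9 footprint libraries, 6098648 counts, and SC replicate 3 had 5787585. The part of depth in the spread of SC was not tested.

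**Figure D3:**
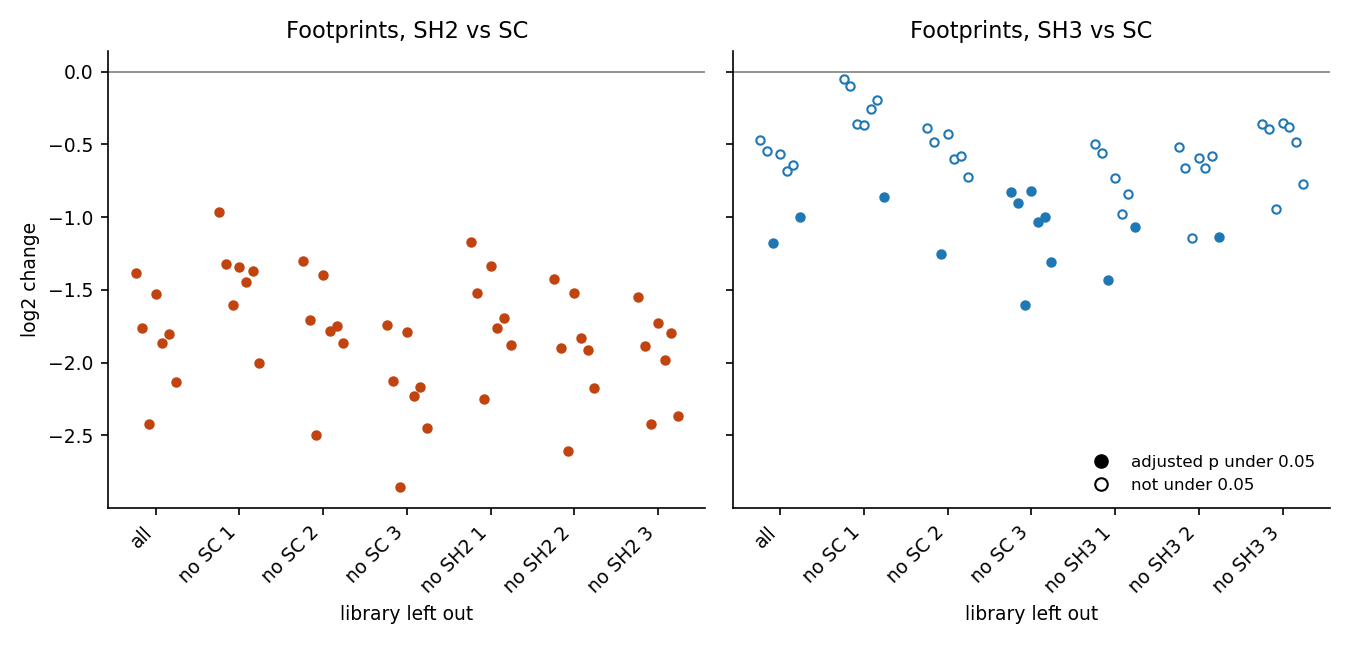
Footprint log2 change of each subunit (7 points per column, ordered MT-ND1, MT-ND2, MT-ND3, MT-ND4, MT-ND4L, MT-ND5, MT-ND6) with all libraries and without 1 library at a time, for SH2 against SC (left) and SH3 against SC (right). Filled points have an adjusted p under 0.05. SH2 stays filled in every column, while SH3 runs from a median of -0.26 without SC replicate 1 to -0.998 without SC replicate 3.

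Tested directly against each other, the hairpins differed in footprints. SH2 was called lower than SH3 for MT-ND2, MT-ND4, MT-ND5 and MT-ND6, 4 subunits of 7, where 11.6% of all genes were called lower and 12.1% higher. The median log2 difference of the 7 was -1.17, against 0.00 over all genes. An unadjusted p under 0.05 was found for all 7 subunits and for 3781 of all 10345 genes. MT-ND5 differed by -1.17 (SE 0.32, adjusted p = 0.0147), MT-ND2 by -1.22 (SE 0.34, adjusted p = 0.0160), and MT-ND4 by -0.97 (SE 0.27, adjusted p = 0.0161). MT-ND6, which differed by -0.01 in RNA, differed by -1.13 (SE 0.35, adjusted p = 0.0258) in footprints. Its difference in footprints over RNA, -1.14 (SE 0.49, adjusted p = 0.375 in edgeR's interaction test), was not called. MT-ND1, MT-ND3 and MT-ND4L missed the threshold, at -0.91, -1.24 and -1.18 with adjusted p of 0.0512, 0.0636 and 0.0576. Every SH2 library lay below every SH3 library for all 7 genes, as for 21.0% of all genes. The count was 0 without SH2 replicate 1, 2 without SH2 replicate 2, 1 without SH3 replicate 1 or SH3 replicate 2, and 7 without any 1 of the SC replicates.

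The ratio of footprints to RNA, a measure of translational efficiency, was low for most of these mRNAs in every group. It is the footprint CPM over the RNA CPM, each a mean of log2 values over 3 libraries, and gene length cancels in it. In SC it was 2.42% (1.59% to 3.67%) for MT-ND1 (range of 1 SE in brackets, here and below), 2.44% (1.57% to 3.79%) for MT-ND4L and 2.45% (1.77% to 3.38%) for MT-ND4. It was 2.67% (1.73% to 4.13%) for MT-ND2, and the ranges of these 4 overlapped. MT-ND5 was at 7.44% (4.79% to 11.6%), a range above theirs. MT-ND6 at 21.6% (14.4% to 32.5%) and MT-ND3 at 23.4% (13.4% to 40.9%) had the highest ratios of the 7, with ranges that overlapped. All these genes were measured in the same libraries, which the SE of a single gene does not take into account. Differences between genes were not tested. By the ratio of mean CPM in SC, MT-ND4 had rank 1, MT-ND4L rank 2, MT-ND1 rank 4 and MT-ND2 rank 5 from the bottom of 10335 genes tested in both kinds. MT-ATP6, a subunit of ATP synthase, held rank 3. Of the remaining mitochondrial mRNAs, MT-CO3 had rank 6, MT-CO1 rank 9, MT-CYB rank 14, MT-CO2 rank 44 and MT-ATP8 rank 2072. A low ratio was thus not particular to complex I. MT-ND5 had rank 33, MT-ND6 rank 436 and MT-ND3 rank 819. The median log2 ratio of all 10335 genes was -0.17. How fully this lysis and gradient recover the fragments held by mitochondrial ribosomes was not tested.

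**Figure D4:**
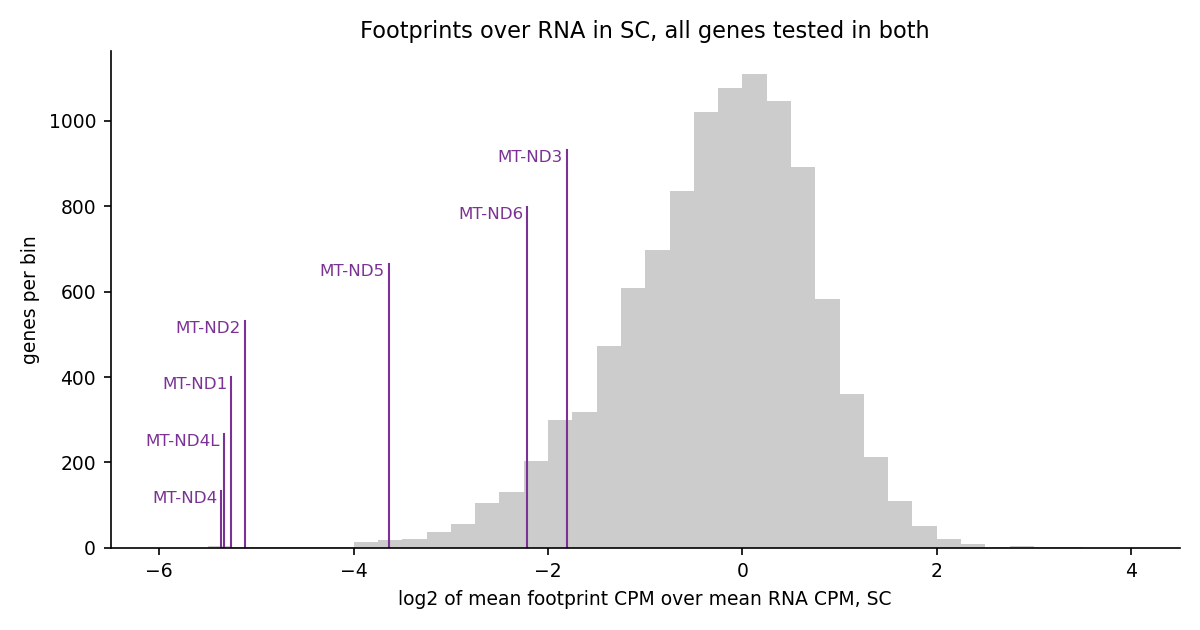
Number of genes by log2 of mean footprint CPM over mean RNA CPM in SC (grey bars, bins of 0.25, 10335 genes), with the 7 complex I subunits marked by lines whose height only separates the labels. MT-ND4, MT-ND4L, MT-ND1 and MT-ND2 lie in the extreme lower tail. MT-ND3 and MT-ND6 lie less far down, in bins of 299 and 204 genes, and still below the median of -0.17.

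No subunit was called for a change of the ratio. Over 12531 genes, 3.90% were called in either direction for SH2 against SC, 0.686% for SH3 against SC and 0.0160% for SH2 against SH3. In edgeR's interaction test 0 of 7 subunits passed in each of the 3 comparisons, and DESeq2 also called 0. In edgeR 0, 0 and 1 of the 7 had an unadjusted p under 0.05, against 2248, 1574 and 1471 of all 12531 genes. The median log2 change of the 7 was -0.31 in SH2 and 0.50 in SH3 against SC, and -0.81 in SH2 against SH3. MT-ND6 had the lowest value in SH2 against SC, -0.91 (SE 0.47, adjusted p = 0.311), and in SH2 against SH3, -1.14 (SE 0.49, adjusted p = 0.375). In SH3 against SC it was 0.23. MT-ND2 had the highest value in SH3 against SC, 0.92 (SE 0.45, adjusted p = 0.404). In SH2 the ratio of MT-ND6 was 10.6% (8.16% to 13.8%), and in SH3 it was 24.2% (20.3% to 29.01%). For MT-ND2 the ratios were 3.35% (2.67% to 4.21%) in SH2 and 5.38% (4.66% to 6.21%) in SH3. The other 5 subunits had ratio changes of -0.56 to 0.19 in SH2 and 0.24 to 0.71 in SH3 against SC. When 1 replicate or 1 library was left out, the ratio change against SC turned sign for 5 of 7 subunits in SH2 and for 3 of 7 in SH3. On simulated counts for SH2 against SC, a 2-fold ratio change was recovered for 34.3% of changed genes and a 4-fold change for 85.9%. Every simulated gene was given the same spread between replicates, narrower than that of each of the 7 subunits in SC. These percentages are therefore likely too high for the 7 subunits. RNA and footprint libraries were not paired by number, because in SC and SH2 the replicates 1 and 2 of the 2 kinds did not deviate together: the correlations over genes of same-numbered libraries were -0.50 and -0.47 in SC and -0.31 and -0.31 in SH2, and those of 1 with 2 and 2 with 1 were 0.58 and 0.47 in SC and 0.57 and 0.50 in SH2.

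Some subunits took a smaller share of the mitochondrial set in the hairpin groups. MT-ND2 made up 9.95, 9.23 and 8.996% of the RNA counts of the 13 mitochondrially encoded mRNAs in SC replicates 1 to 3, against 6.995, 6.002 and 6.34% in SH2 and 6.55, 6.67 and 6.62% in SH3. Both hairpin groups lay wholly below SC. MT-ND3 went from 0.665, 0.650 and 0.659% in SC to 0.594, 0.465 and 0.448% in SH2 and 0.481, 0.447 and 0.469% in SH3, again with no overlap. These 2 of 7 subunits were wholly below SC with both hairpins, as was 1 of the other 6 mRNAs, MT-ATP6, while MT-CO2 was wholly above. In the footprints MT-ND3 was the 1 subunit of 7 whose share lay below SC in every library of both hairpins, again with MT-ATP6 of the other 6, and MT-CO1 was wholly above. The footprint share of MT-ND3 was 3.38 ± 0.812% (SD, n = 3) in SC, 2.06 ± 0.371% in SH2 and 2.25 ± 0.357% in SH3. MT-ND1 and MT-ND4L also had RNA shares in SH3 wholly below those in SC, as did MT-ATP8. The RNA share of MT-CO1 was wholly above SC in SH3, at 29.6 ± 1.39% in SC and 37.7 ± 1.61% in SH3. The shares are parts of the same sum, so they are not independent. The RNA share of MT-ND6 was 0.451 ± 0.0758% in SC, 0.567 ± 0.0878% in SH2 and 0.388 ± 0.0168% in SH3, with SH2 wholly above SH3. MT-ND4 and MT-ND5 overlapped between all groups in RNA, MT-ND4 at 10.5 ± 0.664%, 10.5 ± 1.33% and 9.74 ± 0.604% in SC, SH2 and SH3. All 7 together made up 35.2 ± 1.89%, 32.6 ± 3.31% and 29.98 ± 1.23% of the set in the same order. With 3 libraries against 3 an exact two-sided permutation test cannot go below 0.10, and no test of these shares was run.

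**Figure D5:**
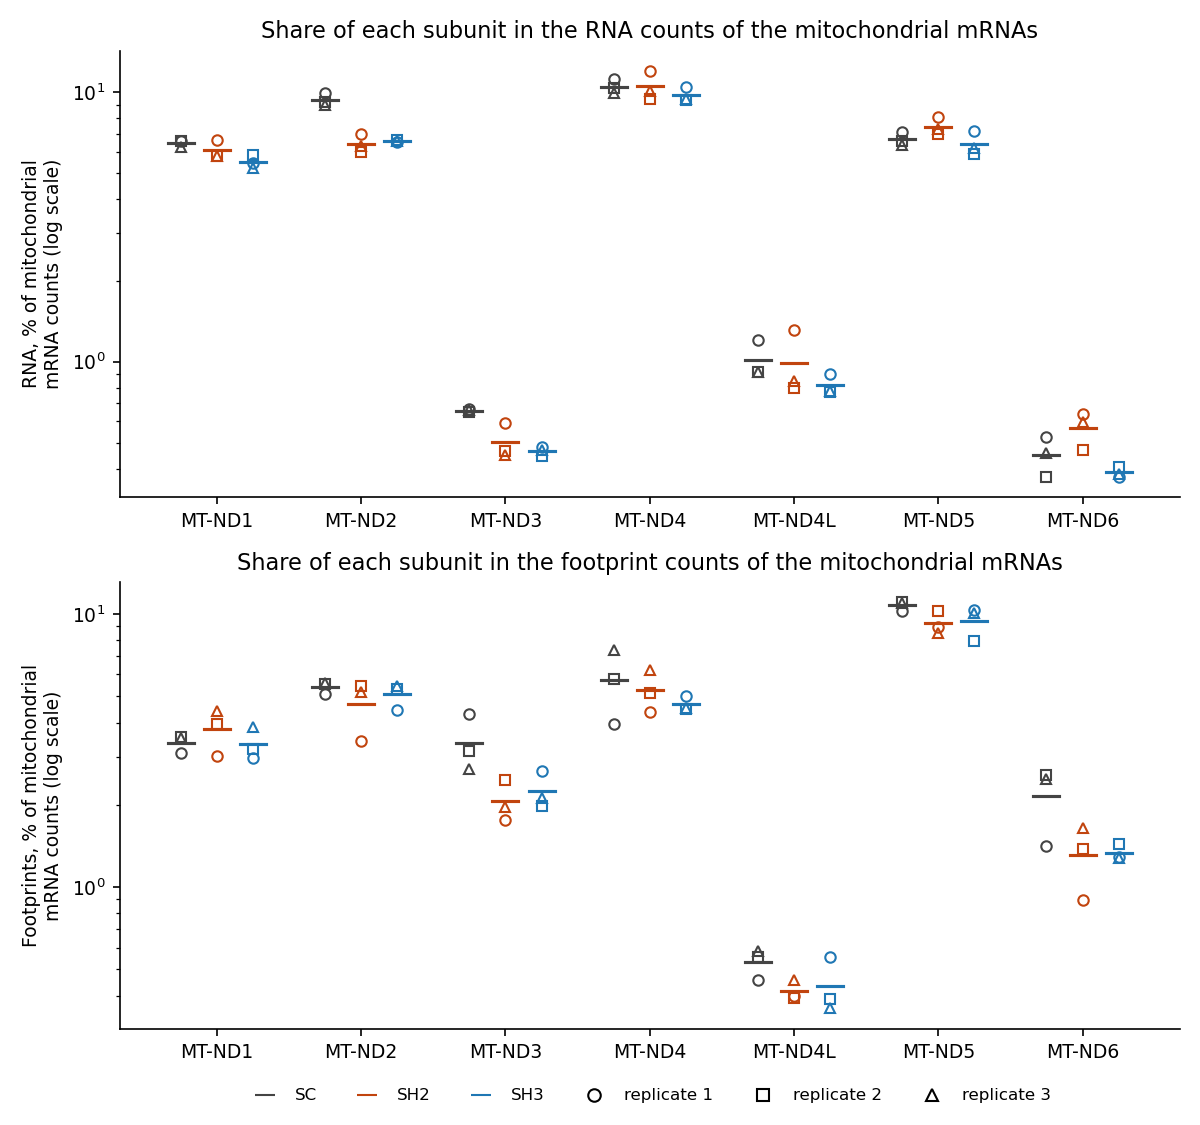
Share of each complex I subunit in the summed counts of the 13 mitochondrially encoded mRNAs, in percent on a log axis, for RNA (top) and footprints (bottom). Points are libraries and bars are group means of 3. In RNA the share of MT-ND2 is 8.996% to 9.95% in SC and 6.002% to 6.995% in the hairpin groups.

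The other 6 mitochondrially encoded mRNAs, for cytochrome b (MT-CYB), cytochrome c oxidase (MT-CO1, MT-CO2, MT-CO3) and ATP synthase (MT-ATP6, MT-ATP8), moved in the same direction. In RNA 6 of 6 were called lower in both SH2 and SH3 against SC, where 30.4% and 25.2% of all genes were. The median log2 changes of the 6 were -1.50 and -1.06, against the -1.57 and -1.20 of the complex I subunits. In footprints 6 were called lower in SH2 and 2 in SH3 against SC, where 23.2% and 19.0% of all genes were. Between the hairpins 5 had lower footprints in SH2 than in SH3, with a median log2 difference of -1.31, against -1.17 for the complex I subunits. In RNA 2 of 6 were lower in SH2 than in SH3, with a median of -0.45, and MT-CO1 was lowest at -0.71 (SE 0.19, adjusted p = 0.00889). Of all genes 11.6% were called lower in that footprint comparison and 20.4% in the RNA one. The lowest called value was that of MT-ATP6 in SH2 footprints, -2.39 (SE 0.38, adjusted p = 0.000121), and MT-CO3 was lowest in SH2 RNA, -1.79 (SE 0.18, adjusted p = 1.52e-06). In the ratio 0 of 6 were called in any comparison. In a fit without SC replicate 1, chosen after the data were seen, 6 were called lower in SH2 RNA, 5 in SH3 RNA, 6 in SH2 footprints and 0 in SH3 footprints. The SH3 footprint median of these 6 mRNAs was -0.58 with all libraries and 0.09 without that one.

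The nuclear subunit genes of complex I had smaller median changes and were called lower more often than higher. Of 36 nuclear subunit genes tested in RNA, 17 were called lower and 3 higher in SH2, and 15 lower and 5 higher in SH3, with medians of -0.20 and -0.11. Over all genes 30.4% were lower and 31.1% higher in SH2, and 25.2% and 27.8% in SH3. NDUFA5, an accessory subunit of the peripheral arm, was lowest in SH2 at -1.56 (SE 0.13, adjusted p = 4.60e-07). NDUFC2, an accessory subunit of the membrane arm, was lowest in SH3 at -1.05 (SE 0.11, adjusted p = 6.04e-06). NDUFA2, another accessory subunit, was the highest called in both, at 0.50 (SE 0.10, adjusted p = 0.000487) and 0.72 (SE 0.10, adjusted p = 3.65e-05). Of 35 tested in footprints, 16 were lower and 0 higher in SH2 and 15 lower and 2 higher in SH3, with medians of -0.30 and -0.38, against 23.2% lower and 21.0% higher over all genes in SH2 and 19.0% and 16.9% in SH3. NDUFA5 was lowest in SH2 footprints, -1.90 (SE 0.22, adjusted p = 7.95e-06), and NDUFC2 in SH3 footprints, -2.09 (SE 0.38, adjusted p = 0.000560). Without SC replicate 1 the RNA counts of the nuclear subunits were 17 lower and 2 higher in SH2 and 14 lower and 1 higher in SH3. Assembly factors, which help build the complex and are not part of it, had 6 of 16 lower and 4 higher in SH2 RNA and 3 lower and 4 higher in SH3 RNA, set against the same shares over all genes as the nuclear subunits. TIMMDC1 was the highest called in SH2 RNA, 0.51 (SE 0.09, adjusted p = 0.000343), and NDUFAF2 was the lowest, -1.30 (SE 0.13, adjusted p = 1.71e-06). Between the hairpins NDUFAF4 differed most, at -1.60 (SE 0.16, adjusted p = 7.50e-06) in RNA and -1.43 (SE 0.20, adjusted p = 0.000124) in footprints. In the ratio for SH2 against SC, NDUFB11 was called lower at -0.66 (SE 0.16, adjusted p = 0.0257), and of the assembly factors COA1 was called higher at 1.02 (SE 0.18, adjusted p = 0.00304) and NDUFAF6 lower at -0.82 (SE 0.22, adjusted p = 0.0388). In footprints against SC, 4 assembly factors were lower and 1 higher in SH2, and 1 was lower and 0 higher in SH3.

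Genes that make, cut and stabilise mitochondrial RNA were called in both directions. Of 20 tested in RNA, 6 were lower and 7 higher in SH2, near the 30.4% and 31.1% over all genes, with a median of -0.04. In SH3 RNA 1 was lower and 8 higher, where 25.2% of all genes were lower and 27.8% higher, with a median of 0.13. The medians were -0.10 and 0.14 without SC replicate 1. TFAM, which packages mitochondrial DNA and helps start its transcription, was the lowest called in both, at -0.82 (SE 0.10, adjusted p = 6.95e-06) in SH2 and -0.35 (SE 0.10, adjusted p = 0.00679) in SH3. ELAC2, which cuts precursors at the 3′ end of tRNAs, was highest in SH2 at 1.06 (SE 0.09, adjusted p = 5.21e-07). HSD17B10, a subunit of mitochondrial RNase P, was highest in SH3 at 0.62 (SE 0.11, adjusted p = 0.000292). In footprints 3 were lower and 3 higher in SH2, where 23.2% of all genes were lower and 21.0% higher. In SH3 footprints 2 were lower and 1 higher, where 19.0% of all genes were lower and 16.9% higher. These counts were 3 and 2 in SH2 and 2 and 2 in SH3 without SC replicate 1. SLIRP, which with LRPPRC stabilises mitochondrial mRNAs, was the lowest called in SH3 footprints, -0.71 (SE 0.13, adjusted p = 0.000790). TFAM was the lowest called in SH2 footprints, -0.95 (SE 0.13, adjusted p = 3.62e-05).

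Of 12 mitochondrial translation factors tested in RNA, 0 were lower and 4 higher in SH2, where 30.4% of all genes were lower and 31.1% higher. In SH3 1 was lower and 7 higher, where 25.2% of all genes were lower and 27.8% higher. The medians were 0.10 and 0.37, and 0.17 and 0.39 without SC replicate 1. GFM1, a mitochondrial elongation factor, was highest in SH2 at 0.81 (SE 0.10, adjusted p = 1.01e-05), and MTIF2, the initiation factor, was highest in SH3 at 1.04 (SE 0.13, adjusted p = 1.59e-05). MTRF1L, a release factor, was the 1 called lower in SH3, -0.30 (SE 0.10, adjusted p = 0.0270). In footprints 3 were higher in SH2 and 2 in SH3, near the 21.0% and 16.9% of all genes called higher. In either hairpin 0 were lower, where 23.2% of all genes were called lower in SH2 and 19.0% in SH3. The counts called higher were 5 and 3 without SC replicate 1. The highest were GFM2, a ribosome recycling factor, at 1.11 (SE 0.19, adjusted p = 0.000309) in SH2, and MTIF2 at 0.84 (SE 0.23, adjusted p = 0.01004) in SH3. In the ratio OXA1L, which inserts mitochondrial proteins into the inner membrane, was called higher in SH2 at 0.67 (SE 0.17, adjusted p = 0.0284).

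The 7 subunits followed each other closely over the libraries. Over the 9 RNA libraries the Pearson correlation of log2 CPM between members ran from 0.927 to 0.996, and over the 9 footprint libraries from 0.92 to 0.99. These libraries share the 3 treatments and the high SC replicate 1, and members can share precursor transcripts, so the values are descriptions. The other 6 mitochondrial mRNAs followed the mean of the 7 as well, with r from 0.914 for MT-CO1 to 0.997 for MT-ATP8 in RNA, and from 0.801 for MT-ATP8 to 0.959 for MT-ATP6 in footprints. Outside the 13 mitochondrial mRNAs, the genes whose RNA most resembled the mean of the 7 were INPP4B (r = 0.99), SLC17A5 (0.99), OSBPL1A (0.98), HAUS2 (0.98) and CCNJ (0.98). INPP4B encodes a phosphoinositide phosphatase and SLC17A5 a lysosomal sialic acid transporter. In footprints they were EMD (0.96), POP7 (0.95), CCDC167 (0.95), PBX3 (0.94) and ZNF726 (0.93), of which EMD encodes emerin of the inner nuclear membrane. Their own changes were smaller in most cases: INPP4B RNA was -0.86 in SH2 and -0.59 in SH3 on the log2 scale, and EMD footprints were -0.58 and -0.27.

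The authors' deposited table gives its own DESeq2 comparisons with SC. In the authors' deposited table all 7 subunits have an adjusted p under 0.05 for RNA in SH2, RNA in SH3 and footprints in SH2, with the highest at 0.00249, 0.0112 and 0.00957. Of all genes with an adjusted p in the authors' deposited table, 54.7%, 49.4% and 34.6% were under 0.05 in these comparisons. For footprints in SH3 the authors' deposited table has 1 of 7 under 0.05, MT-ND6 at 0.00908, against 28.8% of all genes. MT-ND3, called in that comparison by edgeR here, has a log2 change of -1.14 with an adjusted p of 0.153 in the authors' deposited table.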

How the data were processed

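RNA and ribosome footprints were counted per gene in 18 libraries of MDA-MB-231, 3 per group. The deposited table holds raw read counts per gene and library. Per the submitters' processing notes, Bowtie 1.2.2 and DESeq2 were used; the genome build, the strand setting and the treatment of multi-mapping reads are not given in the sources used here. The file is named for a range of 26 to 30, which may be the footprint length. Per the file headers the table also gives the authors' log2 fold changes and their p-values and adjusted p-values from DESeq2. Its 18 columns of normalised values were not used.

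Counts were tested with edgeR 4.0.16 in R 4.3.3 (filterByExpr, TMM, glmQLFit and glmQLFTest, Benjamini-Hochberg over all genes tested, called at an adjusted p under 0.05), in 1 fit of 9 libraries for RNA, 1 for footprints, and 1 of all 18 for the ratio as an interaction. CPM were TMM-scaled within each kind of library. A correlation with the members used log2 CPM plus a pseudocount of 1. All 18 libraries differed beyond counting noise (between replicates, a chi-square divided by its degrees of freedom of 3.38 to 56.3). Simulated counts with 2-fold changes were recovered for 89.0% of changed genes in RNA and 80.6% in footprints (SH2 against SC). The simulations used the same fixed spread between replicates for every gene, not the spread measured for the subunits, which was wider in SC.

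The members and the gene lists were chosen with earlier results of these data known. Named genes are the 7 subunits, FBL, and at most the highest and lowest called gene of each list and comparison. Also named are the 5 genes most like the subunits in RNA and in footprints. Markers of the line are named for the check of its identity. The other 6 mitochondrial mRNAs are also named where their shares, ratio ranks or correlations were read after their values were seen. SH2 and SC replicates with the same number deviated together (r of 0.34 to 0.37 in RNA and 0.25 to 0.30 in footprints over genes), which the labels do not explain; for SH3 not every pair was over 0.1, since replicate 2 was at 0.01 with SH2 and -0.13 with SC in RNA, where replicates 1 and 3 were at 0.24 to 0.47, and in footprints replicate 3 was at 0.26 and 0.32 and the others at -0.12 to 0.02. Alternatives were other scalings, no filter, DESeq2 1.42.0, a fit of only the compared groups, a threshold of 0.01, leaving out each replicate and a replicate block. For the ratio both libraries of a number were left out, although numbers 1 and 2 deviated crosswise between the kinds in SC and SH2, so leaving out 1 library at a time was added after the data were seen. Sequences and coordinates were not used here.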

Additional observations from a re-analysis of the deposited data

Results flagged for a closer look

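5 results were flagged because the hairpins differed from each other in a direct test, edgeR's quasi-likelihood test of SH2 against SH3 over all genes. Footprints were lower in SH2 by -1.22 for MT-ND2, -0.97 for MT-ND4, -1.17 for MT-ND5 and -1.13 for MT-ND6 on the log2 scale, with adjusted p of 0.0160, 0.0161, 0.0147 and 0.0258. RNA of MT-ND2 was lower in SH2 by -0.59, with an adjusted p of 0.0449, a call lost under 6 of 17 alternatives. Of all genes 11.6% were called lower in that footprint comparison and 20.4% in the RNA one. In RNA 1 of 7 subunits was called, which is not above the share over all genes. All 3 SH2 footprint libraries lay below all 3 SH3 libraries for all 7 subunits, called or not, as for 21.0% of all genes. The other 6 mitochondrially encoded mRNAs differed in the same direction. SH2 was called lower than SH3 for 5 of 6 in footprints, with a median log2 difference of -1.31, and for 2 of 6 in RNA.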

How the results depend on the processing

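RNA in SH2 and SH3 against SC and footprints in SH2 against SC had 7 of 7 subunits called under all 17 alternatives, and the ratio had 0 of 7 under all of its 35. Plain library totals moved the median RNA change over all genes to 0.11 in SH2 and 0.12 in SH3, and the 7 remained called. For footprints in SH3 against SC, 2 were called; the count was 1 with plain library totals or with only the compared groups, 7 with no filter on low counts, 0 in DESeq2's Wald test or at a threshold of 0.01, and 0 to 7 when 1 replicate was left out. For footprints in SH2 against SH3, 4 were called; the count was 7 with no filter, with only the compared groups or with the replicate block, 0 at 0.01, and 0 to 7 when 1 replicate was left out. For RNA in SH2 against SH3, 1 was called; the count was 0 in DESeq2's Wald test or at 0.01, 3 with only the compared groups, 4 with the replicate block, 4 without SC replicate 1, and 0 to 4 over all left-out replicates. The cause was not tested. The replicate block left the paired SH2 against SC results at 7 of 7; only in that comparison did every library correlate best with its own number.

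The log2 change of MT-ND6 RNA in SH2 against SH3, -0.01, turned to 0.0012 with DESeq2's size factors and 0.0014 in DESeq2, and ran from -0.15 to 0.10 when 1 replicate was left out. Among ratio changes, leaving out 1 replicate or 1 library turned the sign of 5 in SH2 against SC: MT-ND1 ran from -0.19 to 0.62, MT-ND2 from -0.10 to 0.73, MT-ND3 from -1.01 to 0.28, MT-ND4 from -0.42 to 0.29 and MT-ND4L from -0.82 to 0.17. In SH3 against SC it turned 3: MT-ND3 ran from -0.21 to 1.09, MT-ND5 from -0.017 to 0.81 and MT-ND6 from -0.25 to 0.71. The ends were mostly reached without RNA or footprint replicate 1 or footprint replicate 3 of SC. MT-ND4L had the fewest footprint counts of the 7, 13 to 183 per library.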

Other observations

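The authors' deposited table has columns named RD, for SH2 against SC and for SH3 against SC, that appear to hold the change of the footprint-to-RNA ratio. The log2 values, p-values and adjusted p-values of the 2 hairpins in the authors' deposited table are identical for 17017 of 17017 genes. For MT-ND2 the authors' deposited table lists 0.92 for both, where edgeR here gave 0.27 for SH2 and 0.92 for SH3. For MT-ND6 the authors' deposited table lists 0.21 for both, where edgeR here gave -0.91 for SH2 and 0.23 for SH3. Over 12531 genes the median absolute difference between the RD values of the authors' deposited table and the edgeR ratio change was 0.261 for SH2 and 0.00474 for SH3.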
